A study of Mus musculus with 8 samples.

Results

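The liver makes glucose during fasting and stops when insulin is high. The 9 genes described here belong to that system: Pck1, Fbp1 and Pcx encode enzymes of gluconeogenesis, Slc2a2 and Gckr handle glucose at the membrane and at glucokinase, Ppargc1a and Foxo1 encode transcriptional regulators of the fasting state, and Irs1 and Irs2 encode the docking proteins below the insulin receptor. They were taken by gene symbol, using probe sets annotated with that symbol alone and, for a symbol with several, the probe set with the highest mean over all 8 arrays. All 9 were found among 22180 genes, and all 9 were among the 16635 tested after genes with a mean level below the 25th percentile (2.72 log2) were left out. Samples were livers of wild-type C57BL/6 mice with non-alcoholic fatty liver disease, 4 given rilpivirine and 4 controls, with an Affymetrix whole-transcript array each. Rilpivirine is a non-nucleoside inhibitor of HIV reverse transcriptase and was given by mouth every day at a dose described as equivalent to that of patients. A 60% fat diet of 3 months and a normal diet are both named in the labels, with neither assigned to a sample. The sources used here do not state age, sex, vehicle or the feeding state at collection. Nothing states that each sample came from a separate animal, so p-values measure the spread between these samples, which may be technical.

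As background, fasting raises glucagon, which acts through cAMP and the transcription factor CREB to induce Ppargc1a and Pck1. FOXO1 acts on the same genes and on Irs2 until insulin, signalling through IRS proteins and the kinase AKT, moves it out of the nucleus. In the same cells insulin induces glucokinase and the enzymes of fatty acid synthesis.

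Promoter windows from RefSeq on GRCm38.p6, running from 250 bases before to 50 bases after the start site, were found for all 9 genes. 4 short motifs known from this pathway were searched on both strands. The windows of Pck1 (chr2:173152823-173153122, plus strand) and Ppargc1a (chr5:51567676-51567975, minus strand) are shown because the levels of these genes followed each other across the arrays, as described below, and because they were the only windows of the 9 genes with ACGTCA, part of the cAMP response element, which is in capitals.
Pck1: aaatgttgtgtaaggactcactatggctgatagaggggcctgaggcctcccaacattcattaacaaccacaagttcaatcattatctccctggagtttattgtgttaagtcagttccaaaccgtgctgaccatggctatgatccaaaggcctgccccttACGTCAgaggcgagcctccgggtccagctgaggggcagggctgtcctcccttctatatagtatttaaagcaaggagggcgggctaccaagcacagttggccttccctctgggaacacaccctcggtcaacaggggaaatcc
Ppargc1a: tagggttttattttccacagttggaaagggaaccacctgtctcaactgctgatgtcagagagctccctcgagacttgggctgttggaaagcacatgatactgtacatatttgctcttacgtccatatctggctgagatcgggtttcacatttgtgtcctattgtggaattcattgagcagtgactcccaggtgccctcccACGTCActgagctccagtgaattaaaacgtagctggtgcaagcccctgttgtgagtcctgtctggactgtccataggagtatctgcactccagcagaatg
The motif lies at -91 to -86 from the start site in Pck1 and at -50 to -45 in Ppargc1a, and 7.51% of 32851 promoter windows of the same length hold it. The windows of Irs1 (chr1:82291390-82291689, minus strand) and Irs2 (chr8:11008880-11009179, minus strand) are shown because these genes have like roles but unlike levels across the arrays. Capitals mark CACGTG, an E-box, and TGTTTTG, a motif of the insulin response element type.
Irs1: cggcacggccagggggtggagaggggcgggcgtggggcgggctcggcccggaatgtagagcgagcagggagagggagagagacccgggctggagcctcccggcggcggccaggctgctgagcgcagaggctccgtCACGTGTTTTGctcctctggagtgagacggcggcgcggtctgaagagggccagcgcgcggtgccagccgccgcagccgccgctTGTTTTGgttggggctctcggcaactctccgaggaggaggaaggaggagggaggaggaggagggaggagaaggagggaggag
Irs2: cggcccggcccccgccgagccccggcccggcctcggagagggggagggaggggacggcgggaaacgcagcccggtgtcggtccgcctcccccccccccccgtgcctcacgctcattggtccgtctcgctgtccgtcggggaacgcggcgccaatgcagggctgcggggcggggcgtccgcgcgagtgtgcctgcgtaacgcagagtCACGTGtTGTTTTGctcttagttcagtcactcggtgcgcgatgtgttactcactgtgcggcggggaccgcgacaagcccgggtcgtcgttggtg
In Irs1 the E-box at -115 to -110 overlaps the motif TGTTTTG, which runs from -111 to -105, and the second match of TGTTTTG lies at -32 to -26. In Irs2 the E-box lies at -44 to -39 and the motif TGTTTTG lies at -37 to -31. CACGTG was also found in a Pcx window and TGTTTTG in the Gckr window. Among all windows 7.15% hold CACGTG and 6.28% hold TGTTTTG. The FOXO consensus TGTTTAC, present in 3.65% of all windows, was in none of the windows of the 9 genes, and the Foxo1 window held none of the 4 motifs. Sequence outside these windows was not searched, so a motif absent here may lie beyond them. These matches are descriptions of letters and do not show binding.

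Array medians lay between 3.33 and 3.45 log2. Rilpivirine replicate 2 stood apart, with a mean correlation with the other arrays of 0.965 against 0.976 to 0.981 for the rest. The mean deviation of 99 small nucleolar RNA probe sets was highest on it, at 0.44 log2. That deviation was farther from 0 on control replicate 1, at -0.59, and -0.18 to 0.29 on the remaining arrays. The 12 hepatocyte markers were all above the filter value, and their summed signal lay between 15.57 and 15.67 log2 with rilpivirine and between 15.59 and 15.71 in controls. Of the adipocyte markers, whose cells also express Pck1, Adipoq lay under the filter value, and the summed signal lay at 4.90 to 6.24 log2 in the rilpivirine group and at 5.09 to 5.16 in controls. The highest of these was rilpivirine replicate 4. Part of the sum is Retn, which encodes the adipocyte hormone resistin. It measured 5.38 log2 on that array, against 2.96 to 3.32 in the other 7 arrays. Kidney tubule markers, from the other main site of gluconeogenesis, summed to 5.66 to 5.86 log2 with rilpivirine and 5.60 to 5.81 in controls. In all 10 marker lists, which also covered bile duct, endothelial, stellate, macrophage, lymphocyte, pancreas and muscle cells, the summed signals of the groups overlapped. Of the 6 endothelial markers 5 had a higher mean with rilpivirine, with a median difference of 0.25 log2, and 2 were higher at an unadjusted p under 0.05 in limma, as were 2% of all genes tested. Their sums were 10.55 to 10.99 log2 in the rilpivirine group and 10.30 to 10.74 in controls. The 4 skeletal muscle markers tested all had higher means, with a median of 0.23. Another muscle marker lay under the filter value, was not tested and differed by -0.09 log2. Sums over all 5 were 6.27 to 6.84 log2 in the rilpivirine group and 6.32 to 6.63 in controls. Of 7 macrophage markers 6 had a lower mean, with a median of -0.13, and 0 reached an unadjusted p of 0.05 in limma. Their sums were 10.04 to 10.40 log2 in the rilpivirine group and 10.14 to 10.49 in controls. Among all genes tested 56.9% had a lower mean with rilpivirine and 43.1% a higher mean. In whole tissue, fewer cells of a type and less RNA per cell cannot be told apart, and the part of these marker levels in the results was not tested.

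No member passed the threshold, an adjusted p of 0.05 in limma over all genes tested. The background was 0%, since 0 of 16635 genes passed. At an unadjusted p under 0.05 limma gave Pck1 and Foxo1, 2 of the 9 genes, both lower with rilpivirine. Their levels ran together over the arrays (Pearson's r = 0.983), so they do not count as separate results. Of all genes tested, 3.21% were lower at that level and 2% higher. Higher genes made up 38.4% of all genes at that level, and 48.9% after a further quantile normalization, under which Irs1, with a higher mean, also reached it. Of the 9 genes 6 had a lower mean with rilpivirine and 3 a higher mean, and 56.9% of all genes had a lower mean. The median difference of the 9 was -0.14 log2, beside -0.03 over all genes tested. With the filter at the 50th percentile instead, it was -0.14, beside -0.06 over the 11090 genes then tested. In 0 of the 9 did the rilpivirine and control values separate without overlap, which 3.04% of all genes did. Pck1 and Foxo1 both missed the unadjusted 0.05 when rilpivirine replicate 2 or 4 or control replicate 1 or 3 was left out. Without rilpivirine replicate 2, the array that stood apart, the differences were -0.51 for Pck1 and -0.41 for Foxo1 and the median of the 9 was -0.06; without control replicate 4 only Foxo1 of the 9 genes reached it. In the other direction, Ppargc1a joined Pck1 and Foxo1 without rilpivirine replicate 3, and Ppargc1a and Irs1 joined them without control replicate 2 or with array weights. In these 3 settings, in that order, 1213, 1059 and 943 of all 16635 genes reached that level, against 867 in the main fit. Without rilpivirine replicate 2 or 4 or control replicate 1 or 3 the counts were 700, 1524, 578 and 588.

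**Figure D1:**
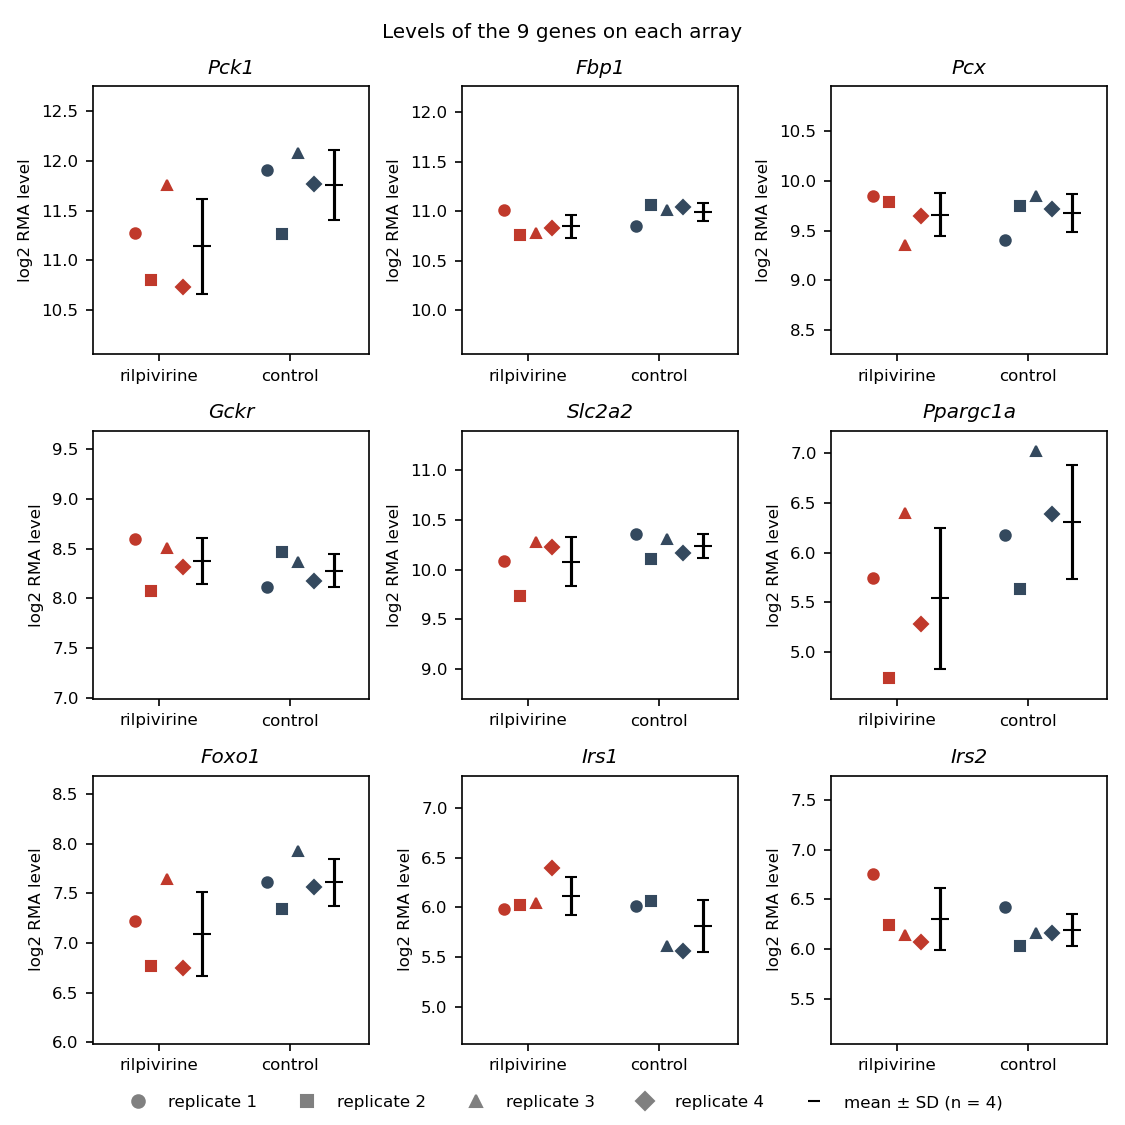
Level of each of the 9 genes on every array (log2 RMA level, each panel spanning the same number of log2 units), with rilpivirine in red on the left and control in dark blue on the right. Symbols are replicates and the black bar is the mean ± SD of 4. The groups overlap in all 9 panels, and the spread within a group is widest for Ppargc1a.

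Among the enzymes, Pck1 had the lowest mean relative to controls. Pck1 encodes the cytosolic phosphoenolpyruvate carboxykinase, which commits oxaloacetate to glucose synthesis. It measured 11.27, 10.81, 11.76 and 10.73 log2 in rilpivirine replicates 1 to 4, against 11.91, 11.27, 12.08 and 11.77 in control replicates 1 to 4. Rilpivirine replicates 2 and 4 were below every control, while replicate 3 was level with control replicate 4. The means were 11.14 ± 0.48 in the rilpivirine group and 11.76 ± 0.35 in controls (SD, n = 4 each), a difference of -0.62 ± 0.24 log2 (SE), or a level 0.652 times that of controls. The 95% confidence interval of limma ran from -1.15 to -0.09, and the adjusted p was 0.890.

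Fbp1 encodes fructose bisphosphatase, the enzyme opposite phosphofructokinase. It measured 11.01, 10.76, 10.79 and 10.83 log2 with rilpivirine, against 10.85, 11.06, 11.01 and 11.04 in controls. 3 rilpivirine arrays were below every control by a small margin, and the overlap came from rilpivirine replicate 1. The difference was -0.14 ± 0.11 log2 (SE), with an interval of -0.39 to 0.10 and an adjusted p of 0.890 in limma.

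Pcx encodes pyruvate carboxylase, the mitochondrial enzyme that makes oxaloacetate from pyruvate. Its values were 9.85, 9.78, 9.36 and 9.65 log2 with rilpivirine, against 9.40, 9.75, 9.85 and 9.71 in controls, so each group held a low array and the rest coincided. The difference was -0.02 ± 0.15 log2 (SE), with an interval of -0.34 to 0.30.

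Slc2a2 encodes GLUT2, the transporter through which hepatocytes take up and release glucose. It measured 10.09, 9.73, 10.28 and 10.22 log2 with rilpivirine, against 10.36, 10.11, 10.31 and 10.17 in controls. Rilpivirine replicate 2 was the lowest of the 8 arrays, and the difference of -0.16 ± 0.14 log2 (SE) became -0.04 without it. Gckr encodes the regulatory protein that holds glucokinase inactive in the nucleus. It measured 8.60, 8.08, 8.51 and 8.31 log2 with rilpivirine, against 8.12, 8.47, 8.37 and 8.17 in controls. The Gckr groups covered much the same range, with a difference of 0.09 ± 0.14 log2 (SE) and an interval of -0.22 to 0.41.

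The regulators Ppargc1a and Foxo1 lay lower with rilpivirine, like Pck1, without passing the adjusted threshold. Ppargc1a encodes the coactivator PGC-1 alpha, which is induced by fasting and acts with FOXO1 and HNF4A on gluconeogenic genes. It measured 5.75, 4.73, 6.40 and 5.28 log2 in rilpivirine replicates 1 to 4, against 6.18, 5.64, 7.02 and 6.39 in control replicates 1 to 4. Rilpivirine replicates 2 and 4 were below every control, and rilpivirine replicate 3 was above all controls but replicate 3. The means were 5.54 ± 0.71 in the rilpivirine group and 6.31 ± 0.57 in controls (SD, n = 4 each). The difference of -0.77 ± 0.35 log2 (SE), a level 0.588 times that of controls, was the largest in size among the 9 genes, but so was its error, and the interval of -1.54 to 0.01 included 0 (adjusted p = 0.890 in limma). Without rilpivirine replicate 2 the difference was -0.50.

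Foxo1 encodes the forkhead factor that insulin restrains. It measured 7.22, 6.77, 7.64 and 6.75 log2 with rilpivirine, against 7.61, 7.34, 7.92 and 7.57 in controls. 3 of 4 rilpivirine arrays were below every control, and rilpivirine replicate 3 was above all controls but replicate 3. The means were 7.09 ± 0.42 in the rilpivirine group and 7.61 ± 0.24 in controls (SD, n = 4 each), a difference of -0.51 ± 0.21 log2 (SE) with an interval of -0.97 to -0.06 and an adjusted p of 0.890 in limma. A second, dimmer probe set annotated to Foxo1 measured 4.53, 4.76, 4.87 and 4.80 log2 with rilpivirine, against 4.62, 4.87, 4.83 and 4.66 in controls. Its difference was -0.004 log2, and the mean of both probe sets differed by -0.26, which was no longer at an unadjusted p under 0.05 in limma.

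The insulin receptor substrates had higher means with rilpivirine without passing the adjusted threshold, and only the Irs2 difference was smaller than its standard error. Irs1 measured 5.98, 6.02, 6.05 and 6.40 log2 with rilpivirine, against 6.01, 6.07, 5.61 and 5.56 in controls. Control replicates 3 and 4 were the lowest of the 8 arrays and rilpivirine replicate 4 the highest. The Irs1 difference was 0.30 ± 0.16 log2 (SE), with an interval of -0.04 to 0.64 and an adjusted p of 0.890 in limma. A second Irs1 probe set lay near or under the filter value, with means of 2.19 log2 with rilpivirine and 2.34 in controls, and averaging both gave a difference of 0.08. Irs2, which encodes the substrate whose transcript is induced by fasting, measured 6.76, 6.24, 6.14 and 6.07 log2 with rilpivirine, against 6.42, 6.04, 6.16 and 6.16 in controls. Replicate 1 was the highest array of each group, and the Irs2 difference of 0.11 ± 0.16 log2 (SE) became -0.04 without rilpivirine replicate 1. A probe set shared by Irs2 and the non-coding gene 9530052E02Rik differed by 0.11 between means of 3.38 log2 with rilpivirine and 3.27 in controls.

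**Figure D2:**
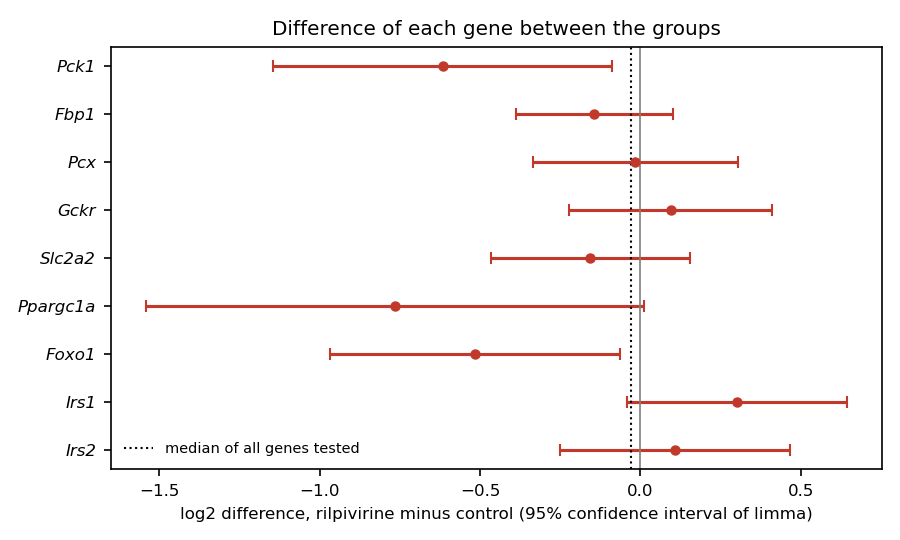
Log2 difference between rilpivirine and control for each of the 9 genes, with the 95% confidence interval of limma; the dotted line is the median of all genes tested (-0.03). The intervals of Pck1 and Foxo1 lie below 0 before adjustment, and those of the other 7 genes include 0.

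To ask whether genes of like role differed in their change, log2 values were subtracted within each array for 3 pairs of genes and the groups compared by an exact two-sided permutation test over samples, whose smallest possible p is 0.0286. The value of Pck1 minus Fbp1 differed by -0.47 log2 between rilpivirine and control (exact p = 0.171, adjusted over the 3 pairs 0.471). That of Ppargc1a minus Foxo1 differed by -0.25 (exact p = 0.314, adjusted 0.471), and that of Irs2 minus Irs1 by -0.19 (exact p = 0.486, adjusted 0.486). An unequal change was thus not shown for any of the 3 pairs. The Irs2 minus Irs1 value turned to 0.03 when all probe sets of each gene were averaged.

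Pck1, Ppargc1a and Foxo1 shared a pattern over the arrays that was present within each group as well as between the groups. In all 3 genes rilpivirine replicates 2 and 4 were the lowest of the 8 arrays and control replicate 3 was the highest. Within the rilpivirine group replicate 3 was the highest in all 3 genes, and within controls replicate 2 was the lowest in all 3. For Foxo1 this holds for the brighter probe set, which was used throughout. On the dimmer Foxo1 probe set rilpivirine replicate 1 was the lowest of the 8 arrays, and control replicate 2 was the highest control. Over the 8 arrays Pearson's r was 0.983 between Pck1 and Foxo1, 0.956 between Ppargc1a and Foxo1 and 0.942 between Pck1 and Ppargc1a, with Spearman's rho of 0.905, 0.929 and 0.881. After each group was centred on its own mean, r was 0.971, 0.940 and 0.916. Without the 2 arrays farthest from the median of the gene named first, r was 0.950, 0.929 and 0.917. These are descriptions with no test, since the 8 points share the normalization of the arrays and include rilpivirine replicate 2.

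The range of Pck1 within the rilpivirine group, 1.03 log2, and within controls, 0.81, both exceeded its difference between the groups. For Ppargc1a these ranges were 1.67 and 1.39 log2, and for Foxo1 0.89 and 0.58. The other members did not share the pattern to that degree. Slc2a2 came closest, with an r of 0.771 with Ppargc1a and 0.679 with Pck1. With Pck1 the r of Fbp1 was 0.342, of Pcx -0.293, of Gckr 0.05, of Irs2 0.05 and of Irs1 -0.715, and Irs1 and Irs2 had an r of -0.05 with each other.

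**Figure D3:**
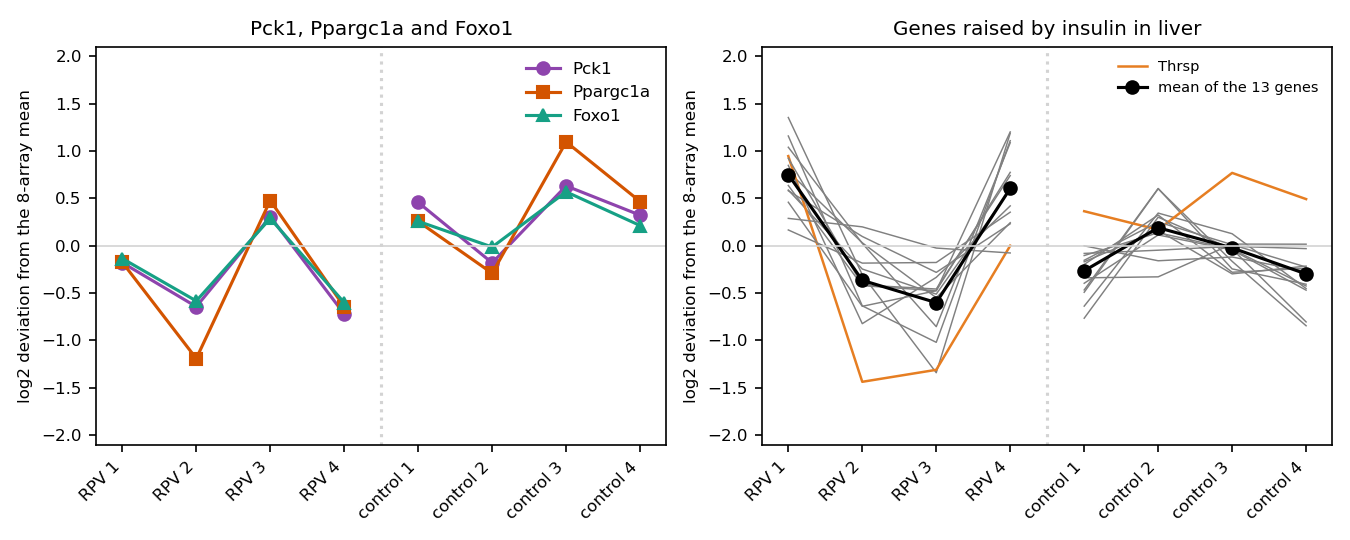
Deviation from the mean of the 8 arrays (log2) on each array, rilpivirine (RPV) left and control right; lines join arrays of a group only to guide the eye, as replicates have no order. On the left Pck1, Ppargc1a and Foxo1 run together, with rilpivirine replicates 2 and 4 lowest and control replicate 3 highest; on the right the mean (black) of 13 genes known to be raised by insulin (grey, with Thrsp in orange) is highest in rilpivirine replicates 1 and 4.

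Among the 16634 other genes tested, Foxo1 ranked 2 in likeness to Pck1 by r, and Ppargc1a ranked 16. The genes most like Pck1 beside Foxo1 were Ppm1k (r = 0.984 over 8 arrays), the phosphatase that activates breakdown of branched-chain amino acids, and Saa4 (0.981), the constitutive serum amyloid A. Their differences between the groups were -0.47 ± 0.23 and -0.57 ± 0.19 log2 (SE). The genes most like Ppargc1a were Them4 (0.990), an acyl-CoA thioesterase, Lgr4 (0.987), a receptor for R-spondins, and Nrg4 (0.971), a growth factor of the neuregulin family, with differences of -0.42, -0.27 and -0.63 log2. Those most like Irs2 were Cpne5 (0.988), Ccdc85c (0.958) and Kctd20 (0.957), with differences of 0.13, 0.08 and 0.06 log2. Without the 2 arrays farthest from the Irs2 median these became 0.858, 0.622 and 0.749, whereas the values for Pck1 and Ppargc1a remained between 0.945 and 0.974. The likeness is the highest of many genes and carries no test.

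The rest of the pathway was read from lists, and 0 genes of any list passed the adjusted threshold. The list counts below stand beside shares over all genes tested. At an unadjusted p under 0.05 in limma 3.21% were lower and 2% higher, and 3.04% had groups without overlap. Of 21 other enzymes and carriers of gluconeogenesis tested, 12 had a lower mean with rilpivirine and 9 a higher mean, and their median difference was -0.10 log2. At an unadjusted p under 0.05 there were 2 lower and 1 higher, and without rilpivirine replicate 2 the median was -0.0087. Got1, the cytosolic aspartate aminotransferase that works with Pck1 to carry oxaloacetate, differed by -0.60 ± 0.25 log2 (SE), and the alanine aminotransferase Gpt2 by -0.38 ± 0.17 (SE). Slc16a1, a carrier of lactate and pyruvate, differed by 0.57 ± 0.22 (SE), with 7.48, 7.39, 7.35 and 8.40 log2 with rilpivirine against 7.08, 7.31, 7.11 and 6.83 in controls. Slc16a1 was the only gene of the 21 whose groups did not overlap, by a narrow margin, and rilpivirine replicate 4 lay far above the other arrays. G6pc, also in this list, had a higher mean with rilpivirine, unlike Pck1, with a difference of 0.50 ± 0.29 log2 (SE). It measured 9.62, 9.83, 9.80 and 9.74 log2 with rilpivirine, against 9.71, 8.17, 9.71 and 9.38 in controls, and its adjusted p was 0.890 in limma. Control replicate 2 lay far below the other arrays, which ran from 9.38 to 9.83, so the difference rests largely on that array.

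Of 19 genes of glucose uptake, glycolysis and fructose use, 10 had a lower mean and 9 a higher mean, and the median was -0.03, the same as over all genes. At an unadjusted p under 0.05 there were 2 lower and 1 higher. Pfkm, the muscle form of phosphofructokinase, differed by 0.35 ± 0.13 log2 (SE), the glucose transporter gene Slc2a1 by -0.32 ± 0.14 and Pfkfb2, which sets the level of the activator of phosphofructokinase, by -0.44 ± 0.19.

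Most genes of insulin signalling and of glucagon control had lower means with rilpivirine, 78.1% and 79.4% of those tested, where 56.9% of all genes did. Of 32 genes beside and below the insulin receptor substrates 25 had a lower mean and 7 a higher mean, the median was -0.08, and 3 were lower and 0 higher at an unadjusted p under 0.05. Tsc1, a brake on mTORC1, measured 4.71, 4.93, 4.95 and 5.10 log2 with rilpivirine, against 5.21, 5.44, 5.22 and 5.41 in controls, without overlap. Its difference was -0.40 ± 0.12 log2 (SE; adjusted p = 0.813 in limma). Trib1, a pseudokinase that directs degradation of C/EBP alpha, differed by -0.37 ± 0.12, and the docking protein gene Gab1 by -0.31 ± 0.13 (SE). Groups did not overlap in 3 of the 32 genes. Of 34 genes of glucagon, cAMP and transcriptional control 27 had a lower mean and 7 a higher mean, the median was -0.16, and 2 were lower and 1 higher at an unadjusted p under 0.05. Ppargc1b, the close relative of Ppargc1a, measured 4.90, 4.78, 4.90 and 4.56 log2 with rilpivirine, against 4.94, 5.07, 5.56 and 5.32 in controls. Its groups did not overlap, and the difference was -0.44 ± 0.15 log2 (SE; adjusted p = 0.855 in limma). Sik1, a kinase induced by cAMP that restrains CREB coactivators, differed by -0.47 ± 0.20, and Prkaca, a catalytic subunit of protein kinase A, by 0.26 ± 0.11 (SE). Groups did not overlap in 2 of the 34 genes. Without rilpivirine replicate 2 the medians of these lists were -0.03 and -0.07, and after a further quantile normalization -0.04 and -0.09. With the filter at the 50th percentile they were -0.11 and -0.16, beside -0.06 over all genes then tested. The share of lower means among brighter genes alone is not given here. The mean deviation of the insulin signalling genes was 0.01, -0.20, -0.11 and 0.10 log2 in rilpivirine replicates 1 to 4. In control replicates 1 to 4 it was 0.10, 0.03, 0.07 and 0.004. For the glucagon list it was -0.04, -0.27, -0.03 and 0.08 with rilpivirine, against 0.14, -0.002, 0.13 and -0.002 in controls. Rilpivirine replicate 2 was the lowest array in both lists.

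Genes known to be raised by FOXO1 or by fasting showed no common direction. Of 18 tested, 10 had a lower mean and 8 a higher mean, and the median was -0.07, or 0.0077 without rilpivirine replicate 2. The lipase gene Pnpla2 differed by -0.45 ± 0.14 log2 (SE), Insig2, a brake on SREBP processing that fasting raises, by 0.65 ± 0.28, and the transcriptional coregulator gene Cited2 by 0.27 ± 0.15. At an unadjusted p under 0.05 there was 1 lower, Pnpla2, and 1 higher, Insig2.

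Genes known to be raised by insulin in liver had mostly higher means with rilpivirine. Of 13 tested 12 had a higher mean and 1 a lower mean, and the median was 0.26 log2, where 43.1% of all genes were higher; 0 reached an unadjusted p of 0.05, and the groups overlapped in all 13. Pnpla3, a lipid droplet protein, measured 6.10, 5.09, 4.21 and 6.15 log2 with rilpivirine, against 4.30, 5.37, 5.03 and 4.26 in controls, a difference of 0.65 ± 0.41 (SE). Pklr, liver pyruvate kinase, differed by 0.32 ± 0.18 (SE). The exception was Thrsp, a lipogenic regulator, with 10.09, 7.71, 7.83 and 9.15 log2 with rilpivirine against 9.51, 9.31, 9.91 and 9.64 in controls, a difference of -0.90 ± 0.44 (SE). The mean deviation of the 13 genes was 0.75, -0.37, -0.60 and 0.61 log2 in rilpivirine replicates 1 to 4, against -0.26, 0.19, -0.02 and -0.30 in control replicates 1 to 4. The rilpivirine group thus held the 2 highest and the 2 lowest of the 8 arrays, and the median became 0.05 without rilpivirine replicate 4 and 0.46 without replicate 3. This order differed from that of Pck1, Ppargc1a and Foxo1, where rilpivirine replicates 2 and 4 lay together at the low end.

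**Figure D4:**
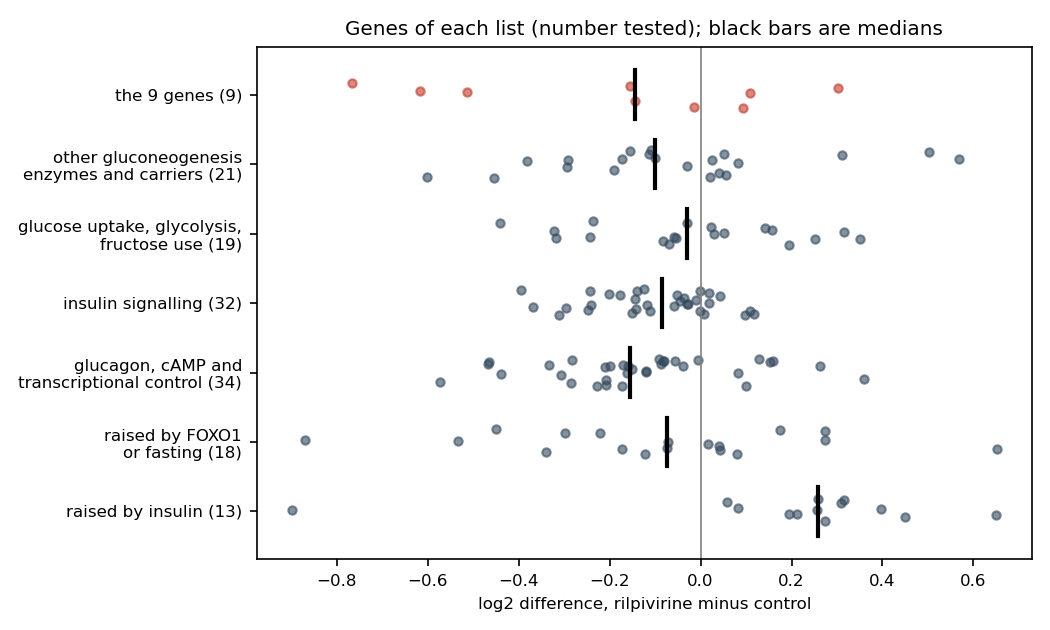
Log2 difference between rilpivirine and control of every gene tested in each list, with the number tested in brackets; points are genes, moved apart vertically at random, and black bars are list medians. The 9 genes spread from -0.77 to 0.30, and the genes raised by insulin have the highest median, 0.26, with Thrsp at -0.90.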

How the data were processed

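Liver RNA of 8 samples was measured on 1-colour Affymetrix arrays. The authors deposited log2 values for 41345 probe sets, made with RMA (background correction, quantile normalization across arrays and summary of probes), per the submitters' processing notes, which also name limma, with no versions. RMA removes differences in total signal between samples.

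In GEO's platform annotation 23521 probe sets had 1 symbol, 1814 several and 16010 none listed. A filter removed the 5545 genes with a mean below the 25th percentile. The test was limma 3.58.1 (lmFit, eBayes; R 4.3.3) over 16635 genes, two-sided, Benjamini-Hochberg adjusted and without covariates. The number of arrays, 4 per group, limits the precision. The fit was tested on simulated data, where calls were required only for added changes larger than any difference of the 9 genes. How often smaller changes would be called is not given here. The 9 genes, the 6 pathway lists (148 genes) and the 10 marker lists were chosen with earlier results of these data known. Named were the 9 genes and the 3 genes of each pathway list with the smallest unadjusted p. The 3 genes most correlated with Pck1, Ppargc1a and Irs2, single marker genes and G6pc were named too. The alternatives were other moderation, array weights, scalings, filters, probe set averages, the replicate number as a block, and each sample left out. Over all genes tested, deviations from the group means correlated between same-numbered samples at 0.46 for number 2. For numbers 1, 3 and 4 the correlations were -0.25, -0.09 and 0.07, so the numbers were not taken as pairs. The plots were made in Python 3.11.15 with matplotlib 3.10.9.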

Additional observations from a re-analysis of the deposited data

Results flagged for a closer look

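The genes named here other than G6pc gave 74 groups of 4 values. In 5 of them a single array lay apart from the other 3. Its gap over the group's range exceeded Dixon's 95% critical value. Chance alone flags about 1 in 20 groups. Irs1 measured 6.40 log2 in rilpivirine replicate 4, and 5.98 to 6.05 in replicates 1 to 3. Slc16a1 measured 8.40 log2 in the same array, and 7.35 to 7.48 in replicates 1 to 3. The adipocyte marker Retn measured 5.38 log2 in that array too, and 3.14 to 3.32 in replicates 1 to 3. Cpne5, the gene most like Irs2 over the arrays, measured 3.78 log2 in rilpivirine replicate 1, and 3.02 to 3.10 in replicates 2 to 4, and its likeness to Irs2 was lower, with r = 0.858, without the 2 arrays farthest from the Irs2 median. Trib1 measured 6.25 log2 in control replicate 4, and 6.55 to 6.59 in the other controls.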

How the results depend on the processing

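Across the alternatives run, 0 genes and 0 of the 9 members passed the adjusted threshold, and the signs of Pck1, Fbp1, Slc2a2, Ppargc1a, Foxo1, Gckr and Irs1 held in each. With a sample left out, Pck1 ranged from -0.82 to -0.48 log2, Foxo1 from -0.70 to -0.40, Ppargc1a from -1.05 to -0.50 and the median of the 9 genes from -0.16 to -0.06. Pcx, near 0, was 0.0089 after a further quantile normalization and ran from -0.11 to 0.085 with a sample left out. Irs2 ran from -0.045 to 0.18. The change of Irs2 minus Irs1 was 0.032 with the mean of all probe sets and -0.39 to -0.022 with a sample left out. The median of the glucose uptake and glycolysis list was 0.019 after a further quantile normalization and -0.059 to 0.068 with a sample left out. Between 0 and 1 of the 9 genes had groups without overlap when a sample was left out: Fbp1 without rilpivirine replicate 1 or control replicate 1, Foxo1 without rilpivirine replicate 3, and Pck1 without control replicate 2; of all genes 785 to 1303 then did. The causes were not tested. With the replicate block, 0 genes passed, 3 of the 9 genes (Pck1, Ppargc1a and Foxo1) were at an unadjusted p under 0.05 in limma, and 1071 genes were, against 867 without it. That count was 1524 without rilpivirine replicate 4 and 578 without control replicate 1. Over all genes tested, same-numbered samples deviated together for number 2 (correlation 0.46) and not for numbers 1, 3 and 4. The block is therefore not read as a pairing. In Pck1, Ppargc1a and Foxo1 (brighter probe set) each rilpivirine value was below the control of the same number. With the block their adjusted p in limma was 0.487, 0.393 and 0.518, against 0.890 without it. The median of all genes tested moved by less than 0.1 log2 under each scaling.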
